A study of Arabidopsis thaliana with 18 samples.

Results

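UDP-glycosyltransferase (UGT) transcripts were followed in developing Arabidopsis thaliana seeds, as probe sets of the ATH1 array that the platform annotation assigns to a single gene with a symbol made of UGT and a number. This rule gave 46 genes with 1 probe set each, out of 19755 probe sets tested and 11763 with a single named gene. No member probe set was shared with another gene. The RefSeq gene table lists 58 genes with such a symbol, and 12 of them had no single-gene probe set here and were not analysed. A further 4 glycosyltransferases carry a UGT name only as a synonym (UGT72B1, UGT79B1, UGT79B6 and UGT80A2), are not members, and are given once at the end.

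UGTs move a sugar, usually glucose, from a UDP-sugar onto small acceptor molecules in the cytosol. In plants the acceptors include flavonoids, phenylpropanoids such as sinapate and the monolignols, glucosinolate precursors, and the hormones auxin, cytokinin, abscisic acid and salicylic acid, and the added sugar commonly makes them more soluble, storable or inactive. Seeds of the Brassicaceae are known for storing glycosylated flavonols in the seed coat, sinapate esters in the embryo, and glucosinolates.

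The study compared 2 natural accessions, C24 and Col-0, at 3 seed stages, to ask how seed transcriptomes differ between accessions of the same stage and between stages of an accession. C24 seeds were taken 8-9, 10-11 and 12-13 days after flower opening, and Col-0 seeds at the same 3 stages, all from untreated wild-type plants grown in pots under long days. Each of the 6 groups held 3 arrays, and each array held RNA of seeds dissected from 48 siliques, with 8 siliques from each of 6 plants. The 2 experiments each used 6 plants of an accession, so its pools had plants in common, and the tests set differences against the variation among such pools.

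Levels are log2 values per probe set, and array medians lay between 6.05 and 6.17. The table holds no detection measure, and the 25th percentiles ran between 4.41 and 4.57, so a level below 4.41 is not shown to lie above background. Seeds are a mixture of seed coat, endosperm and embryo, and fewer cells of a type and less RNA per cell cannot be told apart. Of 7 seed coat markers the annotation named 3 (BAN, PER36 and SBT1.7). The log2 of their summed unlogged levels lay at 12.63 to 12.96, 11.09 to 11.27 and 10.62 to 10.81 in C24 seeds across the 3 stages. In Col-0 seeds it lay at 13.14 to 13.26, 11.28 to 11.69 and 10.51 to 10.80, so it fell with age in both accessions. At 8-9 days it was also lower in C24 with no overlap, where PER36 (-1.73 ± 0.17) and BAN (-0.75 ± 0.16) were called lower, while at 12-13 days BAN was called higher (0.95 ± 0.16). SBT1.7, which makes up most of the sum (mean 12.27 beside 12.76 in C24 at 8-9 days), was not called at 8-9 days. At 10-11 days 1 of the 3 markers was called lower in C24, and PER36 averaged 4.80 in C24 and 5.33 in Col-0. Of 6 endosperm markers only AGL62 was named, at 3.47 to 4.05 and below the 25th percentile, none of 5 embryo markers was named, and of 5 silique wall markers only ALC was named, at 5.64 to 6.53. In the first actin control the 3′ minus 5′ signal, a sign of RNA quality, averaged 2.02, 1.78 and 1.20 in C24 seeds and 1.89, 1.44 and 1.34 in Col-0 seeds across the stages. In the first GAPDH control it averaged 0.54, 0.97 and 0.57 in C24 seeds and 0.29, 0.76 and 1.21 in Col-0 seeds. At 12-13 days the accessions did not overlap in either GAPDH control, with 0.53 to 0.66 in C24 and 1.04 to 1.52 in Col-0 for the first and 0.07 to 0.28 in C24 and 0.30 to 0.62 in Col-0 for the second. Both actin controls did overlap at that stage. The first lay at 1.13 to 1.32 in C24 and 1.05 to 1.75 in Col-0, the second at 1.37 to 1.51 in C24 and 1.20 to 2.35 in Col-0. The part of seed coat share and RNA quality in the results below was not tested.

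The UGT genes were mostly of low signal. The mean level was below 4.41 in all 6 groups for 12 genes (26.1%, against 17.9% of all probe sets), in some groups for 9, and in none for 25. The mean over all arrays lay above every array median for 13 genes (28.3%, against 49.6% of all probe sets). The 12 dim genes were UGT71B6, UGT71C1, UGT71C2, UGT73B5, UGT73C1, UGT73C7, UGT73D1, UGT76B1, UGT76E1, UGT78D3, UGT84B2 and UGT85A5. The mean levels of the members ran between 3.43 and 9.42, but signals of different probe sets are not compared here, since probes differ in brightness. UGT78D1 (8.80 to 10.20 over the 18 arrays), UGT71C4 (8.17 to 9.41) and UGT78D2 (8.14 to 8.63) were among those well above the median on every array. The heat map of all 46 genes shows changes with stage in most of the brighter members, with accession differences among them as well.

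**Figure D1:**
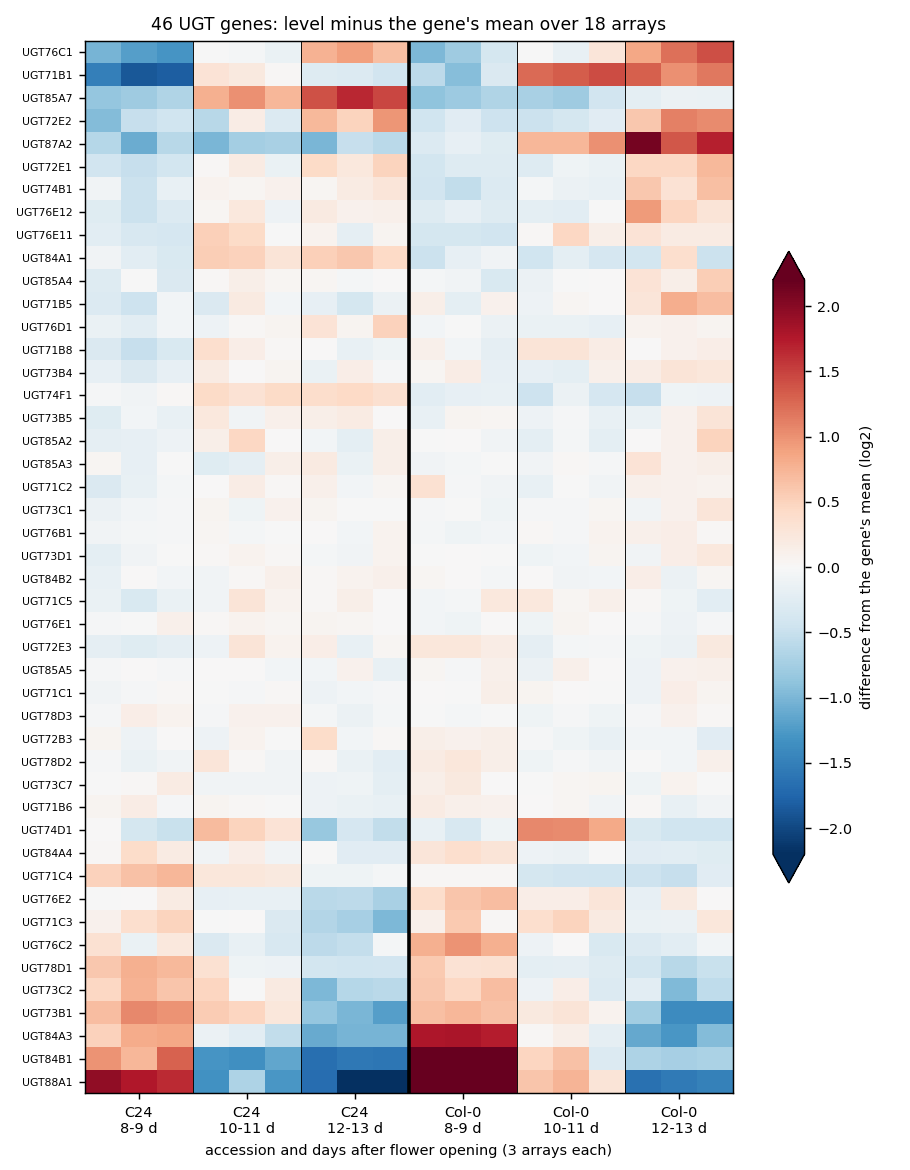
Log2 level of each of the 46 UGT genes (rows) on each of the 18 arrays (columns, by accession and stage), relative to the gene's own mean over all arrays, with the colour scale limited at -2.2 and 2.2. UGT88A1, UGT84B1 and UGT84A3 go from high to low with seed age in both accessions, while UGT85A7 becomes high in C24 only and UGT87A2 in Col-0 only.

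The first question was which UGT genes differed between C24 and Col-0 seeds of the same stage. At 8-9 days 12 of 46 genes passed an adjusted p of 0.05, 1 higher and 11 lower in C24, where 19.5% of all probe sets were called, 10.3% as higher and 9.22% as lower. At 10-11 days 11 genes passed, 4 higher and 7 lower, where 19.1% of all probe sets were called (9.61% higher, 9.54% lower). At 12-13 days 14 genes passed, 4 higher and 10 lower, where 23.0% of all probe sets were called (11.3% higher, 11.7% lower). The share of UGT genes called (26.1%, 23.9% and 30.4% at the 3 stages) was thus a little above that of all probe sets, and no test of that difference was made. Among the seed coat markers, PER36 and BAN were lower in C24 at 8-9 days too, while SBT1.7 was not called. The GAPDH controls separated the accessions at 12-13 days, and the actin controls did not (values above). The median difference over all 46 genes was -0.09, 0.08 and -0.12 at the 3 stages, beside -0.02, 0.01 and -0.01 over all probe sets. A difference of 2-fold or more was called for 3, 5 and 3 genes, where 2.21%, 2.10% and 2.34% of all probe sets reached it.

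Over the 3 stages, 21 UGT genes were called at 1 stage or more, where 40.0% of all probe sets were. None was called in opposite directions at different stages. UGT71C4 was higher in C24 at all 3 stages, which held for 2.70% of all probe sets. UGT71B1, UGT76E2, UGT84B1, UGT87A2 and UGT88A1 were lower in C24 at all 3 stages, which held for 2.71% of all probe sets. Differences and changes are log2 values with the SE of limma's fit (n = 3 arrays per group). The largest called lower in C24 were those of UGT87A2 at 12-13 days (-2.43 ± 0.17), UGT88A1 at 10-11 days (-1.65 ± 0.18) and UGT87A2 at 10-11 days (-1.64 ± 0.17). The largest called higher were both of UGT85A7, 1.67 ± 0.10 at 12-13 days and 1.48 ± 0.10 at 10-11 days.

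**Figure D2:**
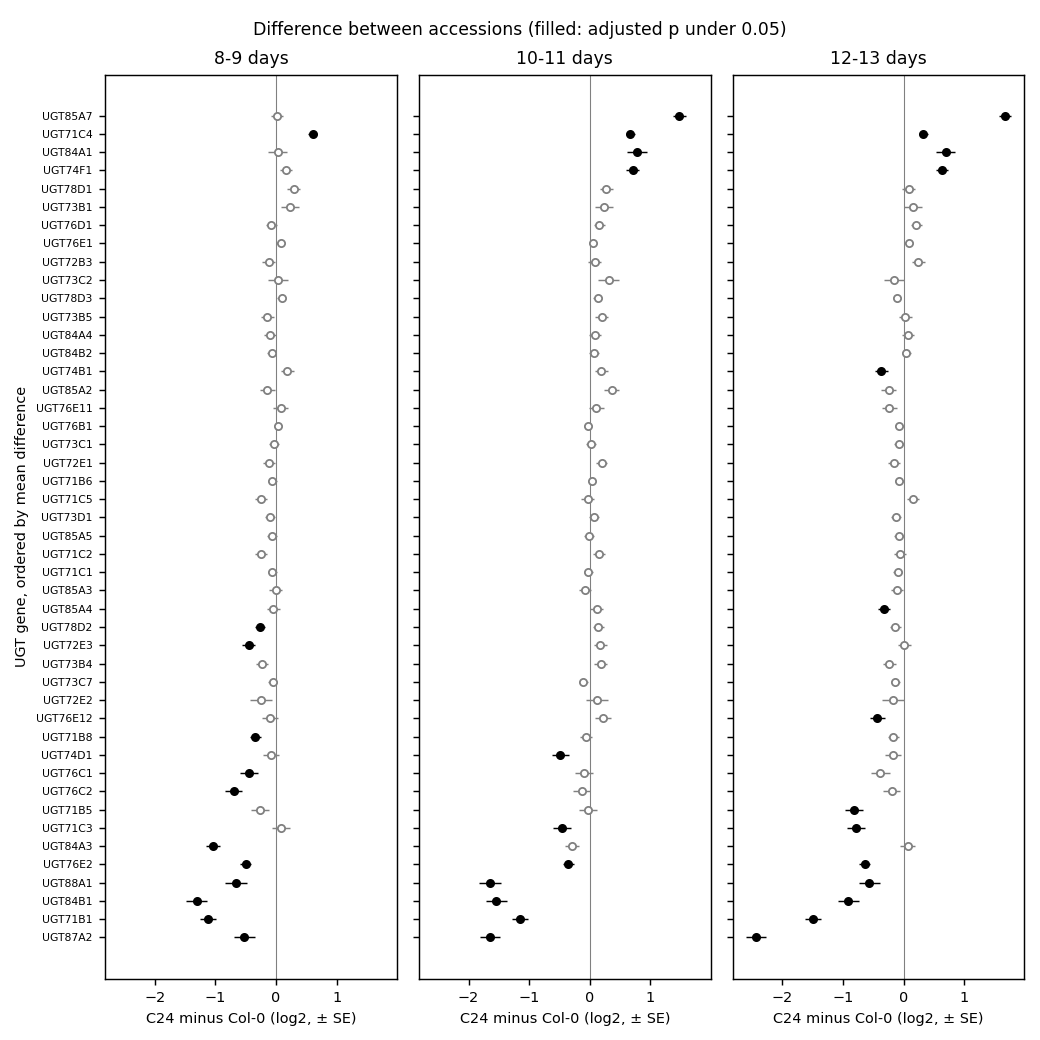
Log2 difference of C24 minus Col-0 (x axis, with SE bars) for each of the 46 UGT genes (rows, ordered by mean difference) in a panel per stage, with filled points for differences past an adjusted p of 0.05. UGT85A7 stands at 1.48 and 1.67 at 10-11 and 12-13 days and near 0 at 8-9 days, while UGT87A2 lies lower at each later stage, down to -2.43.

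The second question was how UGT levels changed with seed age within an accession. Between 8-9 and 12-13 days, 27 of 46 genes passed in C24, 14 higher and 13 lower at 12-13 days, where 59.4% of all probe sets were called (29.4% as higher, the rest as lower). In Col-0 23 genes passed, 12 higher and 11 lower, where 60.6% of all probe sets were called (30.1% higher, 30.5% lower). The UGT counts, 58.7% and 50.0% of the members, were thus no larger than those over all probe sets. In both accessions 8 genes rose and 11 fell, where 23.1% and 25.2% of all probe sets did, and none rose in one and fell in the other. A change of 2-fold or more was called for 11 genes in C24 (4 up, 7 down) and 10 in Col-0 (4 up, 6 down), where 16.2% and 17.9% of all probe sets reached it. In neither accession was a change called for 15 genes, where 29.0% of all probe sets had none. The 12 dim genes, which have no level shown to lie above background, are among those counted.

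The 2 adjacent steps share the arrays at 10-11 days, so their counts are not independent. In the step between 8-9 and 10-11 days, 25 UGT genes passed in C24, 17 higher and 8 lower at 10-11 days, where 50.0% of all probe sets were called, 24.0% as higher and 26.0% as lower. In Col-0 19 genes passed in that step, 7 higher and 12 lower, where 43.3% of all probe sets were called (19.9% higher, 23.3% lower). In the step between 10-11 and 12-13 days, 16 genes passed in C24, 5 higher and 11 lower at 12-13 days, where 25.7% of all probe sets were called (11.7% higher, 14.1% lower). In Col-0 18 genes passed in the later step, 12 higher and 6 lower, where 35.9% of all probe sets were called (17.6% higher, 18.3% lower). The highest group mean fell at 8-9, 10-11 and 12-13 days for 14, 17 and 15 genes in C24, and for 18, 6 and 22 genes in Col-0. Over all probe sets the corresponding shares were 39.7%, 22.5% and 37.8% in C24 and 41.5%, 14.9% and 43.6% in Col-0. For dim genes the stage of the highest mean carries little information, and the counts include them.

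**Figure D3:**
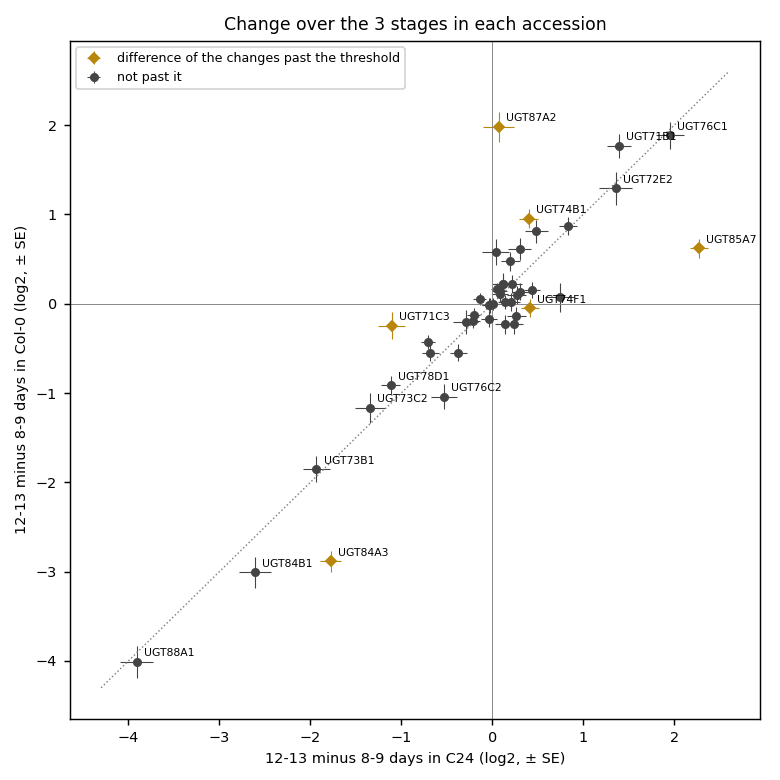
Log2 change of each UGT gene between 8-9 and 12-13 days in C24 (x axis) and in Col-0 (y axis), with SE bars, diamonds for genes whose changes differ between accessions past the threshold, and a dotted diagonal for equal change. Most genes lie near the diagonal, among them UGT88A1 at about -4 on both axes, while UGT85A7 lies below it (2.27 in C24, 0.62 in Col-0) and UGT87A2 above it (0.07 in C24, 1.98 in Col-0).

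The third question was whether the change with age differed between the accessions, tested as an interaction. For the step between 8-9 and 10-11 days 6 UGT genes passed, 4 with the more positive change in C24 and 2 with the more negative, where 8.12% of all probe sets were called (3.88% and 4.24%). For the step between 10-11 and 12-13 days 6 genes passed, 1 and 5, where 8.27% of all probe sets were called (3.68% and 4.59%). For the whole span 6 genes passed, 3 and 3, where 10.6% of all probe sets were called (4.73% and 5.90%). With 1 array left out, the count for the second step ran between 1 and 7 genes, and 8 of the 12 such fits gave 3 or fewer. These 18 calls fell on 11 genes. Among them UGT85A7 and UGT87A2 reached the largest values, 1.65 ± 0.15 and -1.91 ± 0.24 over the whole span. Of the 3 named seed coat markers, 1, 1 and 2 were called in the 3 interactions, all with the more positive change in C24.

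Of the phenylpropanoid enzymes among the members, UGT84A1, UGT84A3 and UGT84A4, which form glucose esters of hydroxycinnamic acids, gave 3 different patterns. UGT84A2, of the same family, is not among the members. UGT84A3 (AT4G15490) lay at 7.59, 7.91 and 7.94 on the C24 arrays at 8-9 days, at 6.96, 6.85 and 6.55 at 10-11 days and at 5.97, 6.08 and 6.06 at 12-13 days. On the Col-0 arrays it lay at 8.87, 8.88 and 8.81, at 7.12, 7.23 and 6.90 and at 5.96, 5.81 and 6.15. All C24 arrays were below all Col-0 arrays at 8-9 days, the groups overlapped at 10-11 and 12-13 days, and within each accession every stage was separate from the next. The difference of C24 from Col-0 was -1.04 ± 0.12 at 8-9 days (adjusted p = 3.62e-06), and neither -0.29 at 10-11 days (0.0943) nor 0.07 at 12-13 days (0.754) passed. The whole-span change was -1.78 ± 0.12 in C24 and -2.88 ± 0.12 in Col-0, and the interaction of 1.11 ± 0.17 passed (adjusted p = 0.000207). The fall was thus smaller in C24, and most of that difference, 0.75 ± 0.17, lay in the first step (adjusted p = 0.00858).

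UGT84A1 (AT4G15480) was higher in C24 than in Col-0 at the later stages. It lay at 5.87, 5.83 and 5.61 on the C24 arrays and 4.90, 5.12 and 4.96 on the Col-0 arrays at 10-11 days, and at 5.86, 5.92 and 5.77 against 4.93, 5.69 and 4.86 at 12-13 days. The C24 arrays were above the Col-0 arrays in both cases, although 1 Col-0 array at 12-13 days came near them. The differences were 0.78 ± 0.16 (adjusted p = 0.00193) and 0.69 ± 0.16 (0.00422). Between 8-9 and 12-13 days the gene rose in C24 by 0.74 ± 0.16, while the change in Col-0 was 0.07 and did not pass. The difference between these changes, 0.67 ± 0.23, did not pass either (adjusted p = 0.0738). UGT84A4 fell over the span, with changes of -0.37 in C24 and -0.55 in Col-0, and differed between accessions at no stage by the test.

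The monolignol glucosyltransferases UGT72E1 and UGT72E2 rose in both accessions, and UGT72E3 did not do so over the whole span. Monolignols are the building blocks of lignin. UGT72E2 (AT5G66690) lay at 4.64, 5.10 and 5.16 at 8-9 days, 4.98, 5.76 and 5.29 at 10-11 days and 6.31, 6.09 and 6.57 at 12-13 days on the C24 arrays. Col-0 arrays gave 5.16, 5.35 and 5.14, then 5.12, 5.21 and 5.35 and then 6.18, 6.70 and 6.63. In both accessions the arrays at 12-13 days were above all earlier ones. The whole-span rise was 1.36 ± 0.18 in C24 (adjusted p = 3.04e-06) and 1.29 ± 0.18 in Col-0 (4.97e-06), with 0.98 and 1.28 of it in the second step. UGT72E1 rose by 0.83 ± 0.10 and 0.87 ± 0.10, starting at means of 4.11 in C24 and 4.23 in Col-0, below the 25th percentile. UGT72E3 was lower in C24 at 8-9 days (-0.45 ± 0.11), and in the first step it rose by 0.31 in C24 and fell by 0.31 in Col-0, with an interaction of 0.63 ± 0.15 (adjusted p = 0.0151).

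Over these 6 phenylpropanoid genes, 3 rose and 2 fell in C24 over the whole span, and 2 rose and 2 fell in Col-0. Over all probe sets 59.4% were called in C24 and 60.6% in Col-0, about evenly in both directions. Among 19 other genes of phenylpropanoid and sinapate synthesis only 2 had a named probe set. HCT, an acyltransferase on the route to the monolignols, rose by 1.53 ± 0.08 in C24 and 1.40 ± 0.08 in Col-0. REF1, an aldehyde dehydrogenase that makes ferulate and sinapate, gave 0.12 in C24, which did not pass, and rose by 0.20 in Col-0.

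Of the 4 genes placed in the flavonoid class here, 2 lay well above the array medians, and these 2 differed little between accessions. The class need not hold every UGT that can act on flavonoids. UGT78D1 (AT1G30530), the flavonol 3-O-rhamnosyltransferase, lay at 10.02, 10.20 and 10.14 at 8-9 days, 9.75, 9.32 and 9.31 at 10-11 days and 9.02, 8.99 and 9.00 at 12-13 days on the C24 arrays. In Col-0 seeds the arrays read 9.99, 9.73 and 9.76, then 9.20, 9.22 and 9.14 and then 9.02, 8.80 and 8.93. It fell with age in both, with no overlap between 8-9 and 12-13 days. The change was -1.12 ± 0.10 in C24 (adjusted p = 2.85e-08) and -0.91 ± 0.10 in Col-0 (3.96e-07), and no accession difference passed at any stage. UGT78D2, the flavonoid 3-O-glucosyltransferase, stayed between 8.14 and 8.63 on all arrays, with a difference of -0.27 at 8-9 days (adjusted p = 0.0434) and a change of -0.26 in the first step in Col-0 as its only calls. UGT78D3, the flavonol arabinosyltransferase, and UGT71C1, which acts on flavonols in vitro, were dim in all groups and never called. Of 19 other flavonoid pathway genes the 2 named ones fell as well. The change was -2.65 ± 0.16 in C24 and -4.34 ± 0.16 in Col-0 for BAN, and -1.65 ± 0.10 in C24 and -2.37 ± 0.10 in Col-0 for DFR, which encodes dihydroflavonol reductase. BAN, which encodes anthocyanidin reductase, is also a seed coat marker, and the summed seed coat markers fell over the same span as UGT78D1.

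Auxin conjugation held a large stage change and a large accession difference in the same gene. UGT84B1 (AT2G23260), which forms the glucose ester of indole-3-acetic acid, lay at 6.92, 6.66 and 7.22 at 8-9 days, 4.63, 4.58 and 4.79 at 10-11 days and 4.27, 4.36 and 4.34 at 12-13 days on the C24 arrays. The Col-0 arrays stood at 8.12, 8.34 and 8.27, then 6.40, 6.59 and 5.64 and then 5.26, 5.20 and 5.25. Every C24 array was below every Col-0 array at each stage. The differences were -1.31 ± 0.17, -1.54 ± 0.17 and -0.91 ± 0.17 at the 3 stages (adjusted p = 2.25e-05, 3.53e-06 and 0.000748). The C24 mean at 12-13 days, 4.32, is below the 25th percentile, so the last difference can be understated. The whole-span change was -2.61 ± 0.17 in C24 and -3.01 ± 0.17 in Col-0, a fall of 6.11-fold in C24, which can be understated for the same reason, and 8.05-fold in Col-0. The interactions of 0.63 ± 0.25 in the second step and 0.40 ± 0.25 over the span did not pass, and both rest on that low C24 level. In C24 the first step held -2.27 and the second -0.34, which did not pass, while the steps in Col-0 were -2.03 and -0.97, both past it.

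UGT74D1 (AT2G31750), which glucosylates auxins and oxidised auxin, had a peak at 10-11 days in both accessions. It lay at 6.88, 6.48 and 6.38 at 8-9 days, 7.57, 7.35 and 7.17 at 10-11 days and 6.04, 6.50 and 6.33 at 12-13 days on the C24 arrays. On the Col-0 arrays it lay at 6.71, 6.52 and 6.78, at 7.93, 7.92 and 7.70 and at 6.53, 6.43 and 6.43. The arrays at 10-11 days were above all others of their accession. The first step was 0.78 ± 0.13 in C24 and 1.18 ± 0.13 in Col-0, the second -1.08 ± 0.13 and -1.39 ± 0.13, all past the threshold, and at 10-11 days the level was lower in C24, with a difference of -0.48 ± 0.13 (adjusted p = 0.0155). UGT84B2, which acts on indole-3-acetic acid in vitro and neighbours UGT84B1, was dim in all groups and never called.

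Of 21 other genes of auxin synthesis and inactivation, 8 had a named probe set. At each stage 2 of these 8 were lower in C24 and none was higher, where 9.22%, 9.54% and 11.7% of all probe sets were called lower. They were GH3.3 with GH3.17 at 8-9 days and GH3.3 with GH3.5 at the later stages. GH3.3, which joins indole-3-acetic acid to amino acids, lay at 5.93, 6.15 and 5.64 on the C24 arrays and 7.64, 7.96 and 7.30 on the Col-0 arrays at 10-11 days. Its differences of -0.91 ± 0.21, -1.72 ± 0.21 and -1.48 ± 0.21 passed at all 3 stages. GH3.5, of the same enzyme group, was lower at 10-11 days (-0.44 ± 0.11) and 12-13 days (-0.75 ± 0.11), and GH3.17 at 8-9 days (-0.43 ± 0.10). Over the whole span 4 of the 8 rose and 1 fell in each accession, where 29.4% of all probe sets rose in C24 and 30.1% in Col-0, with DAO1, the dioxygenase that oxidises indole-3-acetic acid, rising by 2.36 ± 0.12 in C24 and 2.34 ± 0.12 in Col-0.

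The cytokinin N-glucosyltransferases UGT76C1 and UGT76C2, which inactivate cytokinins and lie next to each other in the genome, moved in opposite directions with age. UGT76C1 (AT5G05870) lay at 4.80, 4.61 and 4.52 at 8-9 days, 5.81, 5.77 and 5.67 at 10-11 days and 6.59, 6.72 and 6.47 at 12-13 days on the C24 arrays. Col-0 arrays gave 4.82, 5.03 and 5.42, then 5.80, 5.65 and 6.09 and then 6.66, 7.03 and 7.24. It was higher at each later stage with no overlap within an accession. The whole-span rise was 1.95 ± 0.15 in C24 (adjusted p = 2.48e-09) and 1.88 ± 0.15 in Col-0 (3.51e-09). UGT76C2 (AT5G05860) lay at 5.33, 4.85 and 5.23 in C24 and 5.77, 5.98 and 5.77 in Col-0 at 8-9 days, and at 4.41, 4.47 and 4.94 in C24 and 4.70, 4.76 and 4.94 in Col-0 at 12-13 days. The change was -0.53 ± 0.14 in C24, where the arrays of both stages overlapped, and -1.04 ± 0.14 in Col-0, where they did not. At 8-9 days both genes were lower in C24, UGT76C1 with a difference of -0.45 ± 0.15 (adjusted p = 0.0479) and UGT76C2 with -0.70 ± 0.14 (0.00142). UGT73C1, a cytokinin O-glucosyltransferase, was dim and never called, and none of 19 other cytokinin genes had a named probe set.

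**Figure D4:**
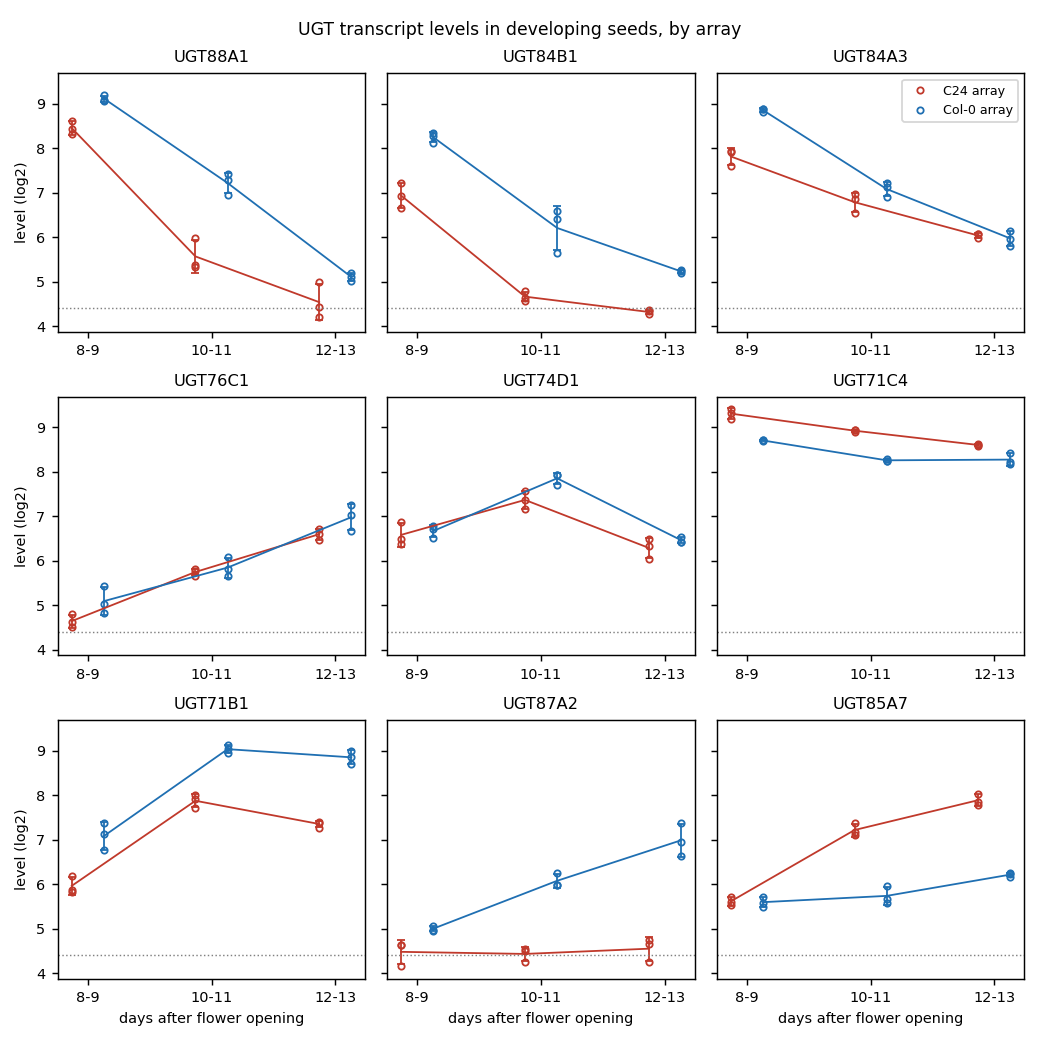
Log2 level on each array (points) with group means and SD (lines and bars, n = 3) at the 3 stages in C24 and Col-0 for 9 UGT genes, with the dotted line at 4.41, the lowest 25th percentile of an array. UGT88A1 and UGT84B1 fall in both accessions, UGT85A7 climbs in C24, and UGT87A2 climbs in Col-0 while staying near the dotted line in C24.

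The 3 genes placed in the abscisic acid class here had changes with age of at most 0.58 in either direction. The class need not hold every UGT that can act on abscisic acid. UGT71C5, an abscisic acid glucosyltransferase, lay between 5.25 and 5.86 on all arrays and rose in C24 by 0.26 ± 0.10 over the whole span. UGT71B8, a homologue of the abscisic acid glucosyltransferase UGT71B6, was lower in C24 at 8-9 days (-0.34 ± 0.10) and rose in the first step by 0.58 in C24 and 0.30 in Col-0. UGT71B6 itself was dim, with changes of -0.21 and -0.20 over the span in C24 and Col-0 at levels not shown to lie above background. None of 15 other abscisic acid genes had a named probe set.

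For salicylic acid, UGT74F1 (AT2G43840), one of its glucosyltransferases, was higher in C24 at the later stages. It lay at 5.92, 5.97 and 5.90 on the C24 arrays and 5.03, 5.44 and 5.43 on the Col-0 arrays at 12-13 days, and at 5.96, 5.85 and 5.96 against 5.08, 5.41 and 5.17 at 10-11 days. The groups did not overlap, and the C24 arrays were tightly grouped. The differences were 0.70 ± 0.10 at 10-11 days (adjusted p = 5.08e-05) and 0.63 ± 0.10 at 12-13 days (0.000138), while 0.16 at 8-9 days did not pass. UGT71C3, a methyl salicylate glucosyltransferase, went the other way. Its level was 4.30, 4.22 and 3.97 in C24 and 4.81, 4.83 and 5.20 in Col-0 at 12-13 days, with a difference of -0.78 ± 0.15 (adjusted p = 0.000901). The whole-span change was -1.11 ± 0.15 in C24, to below the 25th percentile, that of -0.25 in Col-0 did not pass, and the interaction was -0.86 ± 0.21 (adjusted p = 0.0135). UGT76B1, which also acts on salicylic acid, was dim, with a change of 0.16 over the span in Col-0. UGT76D1, which acts on dihydroxybenzoic acids, stayed at 4.83 or below on all arrays and rose in C24 by 0.44 ± 0.09. Its means were below the 25th percentiles of the arrays in 5 groups, among them C24 at 8-9 days (4.17). Of 6 other salicylic acid genes the 1 named, BSMT1, was called in no comparison.

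UGT74B1 (AT1G24100), the S-glucosyltransferase of glucosinolate synthesis, rose with age and more so in Col-0. It lay at 7.57, 7.16 and 7.48 at 8-9 days, 7.72, 7.69 and 7.73 at 10-11 days and 7.69, 7.82 and 7.91 at 12-13 days on the C24 arrays. In Col-0 seeds the arrays read 7.21, 7.11 and 7.35, then 7.59, 7.51 and 7.49 and then 8.24, 7.96 and 8.31. At 12-13 days all C24 arrays were below all Col-0 arrays, with a difference of -0.36 ± 0.11 (adjusted p = 0.0183). The whole-span rise was 0.40 ± 0.11 in C24 and 0.95 ± 0.11 in Col-0, with an interaction of -0.55 ± 0.15 (adjusted p = 0.0246). That call was lost in 7 of 12 fits with 1 array left out (-0.67 to -0.47 over all 12). Of 18 other glucosinolate genes 2 were named, the transporters GTR1 and GTR2, and GTR2 rose by 2.50 ± 0.12 in C24 and 2.68 ± 0.12 in Col-0. GTR1 had whole-span changes of 0.16 in C24 and 0.15 in Col-0 that did not pass, and was lower in C24 at 8-9 days (-0.37 ± 0.11) and 12-13 days (-0.35 ± 0.11).

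The 24 genes counted in no substrate class here, UGT71C3 and UGT76D1 among them, held the largest fall and the largest rise with age. UGT88A1 (AT3G16520) had the largest fall with age. It lay at 8.61, 8.44 and 8.31 at 8-9 days, 5.34, 5.99 and 5.38 at 10-11 days and 4.99, 4.42 and 4.22 at 12-13 days on the C24 arrays. The Col-0 arrays stood at 9.07, 9.19 and 9.09, then 7.28, 7.41 and 6.96 and then 5.03, 5.11 and 5.19. Within each accession no 2 stages overlapped, and all C24 arrays were below all Col-0 arrays at each stage. The whole-span change was -3.91 ± 0.18 in C24 (adjusted p = 1.11e-12) and -4.01 ± 0.18 in Col-0 (6.18e-13), or 15.0-fold and 16.1-fold. The first step held -2.88 in C24 and -1.90 in Col-0, and the second -1.03 in C24 and -2.11 in Col-0. The interaction was -0.99 ± 0.25 in the first step (adjusted p = 0.0197) and 1.08 ± 0.25 in the second (0.0122). The first lost its call in 4 of 12 fits with 1 array left out (-0.95 to -0.87 in those fits). The C24 mean at 12-13 days, 4.54, lies within the range of the 25th percentiles, so the second-step and whole-span changes in C24 can be understated. The second-step interaction can be overstated for the same reason. The difference of C24 from Col-0 was larger at 10-11 days, -1.65 ± 0.18, than at 8-9 days, -0.66 ± 0.18, or at 12-13 days, -0.56 ± 0.18. The call at 12-13 days was lost without replicate 2 or 3 of either accession (-0.56 to -0.40, adjusted p 0.0608 to 0.153), and the call at 8-9 days without replicate 2 of Col-0 (-0.62, adjusted p = 0.0509).

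UGT87A2 (AT2G30140), known for an effect on flowering time, rose with age in Col-0, while no change with age passed in C24. On the C24 arrays it lay at 4.63, 4.17 and 4.64 at 8-9 days, 4.25, 4.51 and 4.54 at 10-11 days and 4.24, 4.75 and 4.66 at 12-13 days. On the Col-0 arrays it lay at 4.95, 5.07 and 4.98, at 5.99, 5.99 and 6.25 and at 7.37, 6.63 and 6.96. The C24 arrays stayed around the 25th percentile at all stages, and every Col-0 array was above every C24 array of its stage. A rise in C24 below that level would not be seen, so the interactions of this gene can be overstated. The differences were -0.52 ± 0.17 (adjusted p = 0.0365), -1.64 ± 0.17 (1.19e-06) and -2.43 ± 0.17 (5.68e-09) at the 3 stages, the last a 5.40-fold lower level in C24. The rise in Col-0 was 1.98 ± 0.17 over the span, against 0.07 ± 0.17 in C24, and the interaction was -1.91 ± 0.24 (adjusted p = 2.81e-05). The call at 8-9 days was lost without replicate 2 of C24 (-0.37, adjusted p = 0.196) and without any 1 of the 3 Col-0 arrays (-0.55 to -0.49, adjusted p 0.0684 to 0.112).

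UGT85A7 (AT1G22340) gave the opposite picture. On the C24 arrays it lay at 5.53, 5.59 and 5.72 at 8-9 days, 7.17, 7.38 and 7.10 at 10-11 days and 7.78, 8.03 and 7.84 at 12-13 days. Col-0 arrays gave 5.50, 5.58 and 5.71, then 5.66, 5.59 and 5.96 and then 6.17, 6.25 and 6.23. The accessions overlapped at 8-9 days and were clearly separate afterwards. The difference was 0.02 at 8-9 days, which did not pass, 1.48 ± 0.10 at 10-11 days (adjusted p = 8.69e-09) and 1.67 ± 0.10 at 12-13 days (1.22e-09). The whole-span rise was 2.27 ± 0.10 in C24 (4.83-fold) and 0.62 ± 0.10 in Col-0 (1.54-fold), with an interaction of 1.65 ± 0.15 (adjusted p = 5.96e-07). The first step held 1.60 of the rise in C24, while 0.14 in Col-0 did not pass, and that interaction was 1.46 ± 0.15 (adjusted p = 4.28e-06).

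UGT71B1 (AT3G21750) was lower in C24 at all 3 stages while rising in both accessions. It lay at 6.19, 5.83 and 5.87 at 8-9 days, 7.99, 7.91 and 7.71 at 10-11 days and 7.40, 7.38 and 7.26 at 12-13 days on the C24 arrays. In Col-0 seeds the arrays read 7.12, 6.76 and 7.36, then 8.94, 9.03 and 9.13 and then 9.00, 8.69 and 8.85. The accessions did not overlap at any stage, and the differences were -1.12 ± 0.13, -1.16 ± 0.13 and -1.50 ± 0.13. The first step gave 1.91 ± 0.13 in C24 and 1.95 ± 0.13 in Col-0, and the second -0.52 ± 0.13 in C24, while -0.18 in Col-0 did not pass. No interaction passed for this gene.

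UGT71C4 (AT1G07250) was the gene that was higher in C24 at every stage. It lay at 9.18, 9.32 and 9.41 on the C24 arrays and 8.70, 8.70 and 8.69 on the Col-0 arrays at 8-9 days, at 8.93, 8.93 and 8.90 against 8.28, 8.25 and 8.23 at 10-11 days, and at 8.59, 8.58 and 8.62 against 8.21, 8.17 and 8.43 at 12-13 days. The accessions did not overlap at any stage, although the differences were small, 0.60 ± 0.08, 0.67 ± 0.08 and 0.33 ± 0.08. With age it changed by -0.70 ± 0.08 in C24 and -0.43 ± 0.08 in Col-0. UGT76E2 was lower in C24 at all stages, with differences of -0.50, -0.35 and -0.64 and an SE of 0.09 each, and changed by -0.68 in C24 and -0.55 in Col-0 with age. Its call at 10-11 days was lost without replicate 3 of Col-0 (-0.31, adjusted p = 0.0523).

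UGT73B1 (AT4G34138) and UGT73C2 (AT2G36760) fell with age in both accessions and differed between them at no stage by the test. UGT73B1 lay at 8.21, 8.60 and 8.52 at 8-9 days and at 6.68, 6.53 and 6.33 at 12-13 days on the C24 arrays, and at 8.20, 8.26 and 8.17 and then 6.77, 6.15 and 6.16 on the Col-0 arrays. The stages did not overlap. The change was -1.93 ± 0.14 in C24 and -1.86 ± 0.14 in Col-0, with -1.46 and -1.37 of it in the second step. For UGT73C2 it was -1.34 ± 0.17 in C24 and -1.16 ± 0.17 in Col-0.

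The remaining genes gave smaller differences. UGT71B5 (6.08, 5.89 and 6.14 in C24 and 6.54, 7.07 and 6.94 in Col-0 at 12-13 days) was lower in C24 at that stage (-0.81 ± 0.15), after a whole-span rise of 0.58 ± 0.15 in Col-0. UGT76E12 (-0.43 ± 0.13) and UGT85A4 (-0.32 ± 0.11) were lower in C24 at 12-13 days too, with C24 means of 4.05, below the 25th percentiles of the arrays, and 4.50, within their range. UGT76E11 rose in both accessions, by 0.30 ± 0.12 in C24 and 0.61 ± 0.12 in Col-0. Its means at 8-9 days, 4.28 in C24 and 4.20 in Col-0, were below the 25th percentiles of the arrays. UGT85A2, UGT71C2 and UGT73B4 had changes of at most 0.37 in adjacent steps and no whole-span call, and UGT73B5 and UGT73C7 only over the whole span in C24 (0.27 and -0.21). UGT72B3, UGT73D1, UGT76E1, UGT85A3 and UGT85A5 were called in none of the 9 accession and stage comparisons, as were UGT71C1, UGT73C1, UGT78D3 and UGT84B2 above.

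Many UGT genes lie side by side in the genome. By the order of protein-coding genes in RefSeq, 30 of the 46 members fell into 13 groups of neighbours with at most 1 other gene between them. Over the whole span in C24, 4 of these 13 groups held members called in both directions, 1 held 2 or more called the same way only, 6 held 1 called member and 2 held none. In Col-0 the counts were 1, 2, 6 and 4. Dim genes are counted. The C24 group of UGT71B6 and UGT71B8 was called in both directions only through the dim UGT71B6, whose fall is not shown to lie above background. Groups called in both directions were fewer elsewhere, 3 in the first step in C24, at most 1 in each accession comparison and in each of the other steps, and 0 in all interactions. No comparison with other neighbouring genes was made. Next to UGT85A7, with its whole-span rise of 2.27 in C24, UGT85A5 was dim throughout (3.26 to 3.55 over all arrays), and UGT85A2 and UGT85A3 had no called whole-span change. Among the phenylpropanoid neighbours at AT4G15480 to AT4G15500, UGT84A1 rose by 0.74 in C24 while UGT84A3 fell by 1.78. For C24 minus Col-0 at 10-11 days, UGT71C4 (0.67) and its neighbour UGT71C3 (-0.46) differed in opposite directions.

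**Figure D5:**
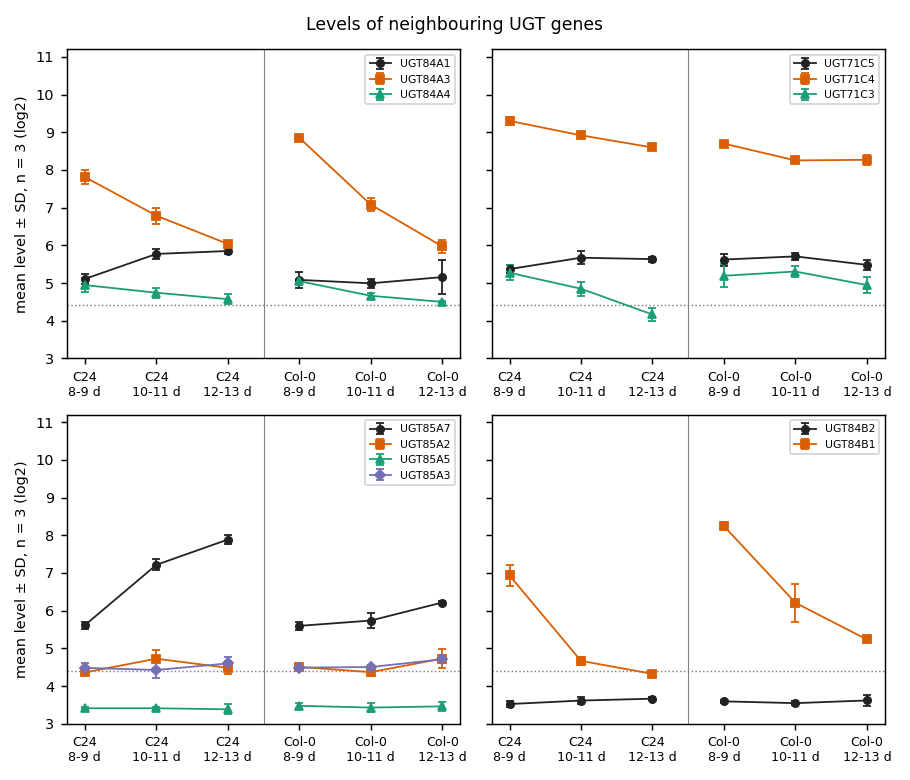
Mean log2 level ± SD (n = 3) by stage in C24 (left) and Col-0 (right) for the members of 4 groups of neighbouring UGT genes, with the dotted line at 4.41, the lowest 25th percentile of an array. The shapes, not the heights, are to be compared, since probe sets differ in brightness: UGT85A7 climbs while UGT85A5 stays below the dotted line, UGT84B1 falls while UGT84B2 stays below it, and UGT84A3 falls while UGT84A1 climbs in C24.

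Of the 4 related glycosyltransferases, UGT72B1, which acts on monolignols and chlorinated phenols, was lower in C24 at all 3 stages (-0.89, -0.37 and -0.73, SE 0.09 each). It rose with age by 0.88 in C24 and 0.72 in Col-0. UGT79B1, an anthocyanin xylosyltransferase, was lower in C24 at 8-9 days (-0.66 ± 0.14) and higher at 10-11 days (0.46 ± 0.14, with overlapping arrays), and the interaction over that step was 1.12 ± 0.20 (adjusted p = 0.00166). The sterol glucosyltransferase UGT80A2 was higher in C24 at 10-11 days by 0.29 ± 0.09, and UGT79B6 was below the 25th percentile in every group and was never called.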

How the data were processed

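Seed RNA of 6 groups of 3 arrays was measured on Affymetrix ATH1 arrays. The deposited values are log2 levels per probe set. Per the labels' design text, the authors kept only probes identical in both genomes and matching TAIR10 gene models, with at least 3 probes per probe set. The submitters' processing notes name TAIR10, while how signals were background-corrected, normalized and summarised over probes is not given in the sources used here. Levels were used as deposited, and all 18 columns matched a sample by name.

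Of 19766 probe sets, 11 controls were left out. One limma 3.58.1 model of the 6 group means covered the 18 arrays (lmFit and eBayes, 12 residual and 5.80 prior degrees of freedom, R 4.3.3). It gave 12 comparisons, namely the accession difference (C24 minus Col-0) per stage, 3 stage differences per accession, and 3 interactions. P-values were adjusted over 19755 probe sets (Benjamini-Hochberg, threshold 0.05). The smallest p of an exact permutation test on a single gene, 3 arrays against 3, is 0.1. In data simulated for the accession difference at 8-9 days, 97 of 100 probe sets changed by 1 on the log2 scale were recovered. Of those changed by 2, 100 of 100 were recovered, and 14 false calls fell among the unchanged probe sets. Only these sets were changed in the simulation, while 19.5% of all probe sets were called in the real comparison. The simulated rates therefore need not hold for the real data. The number of arrays limits the precision.

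Genes were named from the platform annotation, and neighbours from the order of genes in a RefSeq table of TAIR10.1. Which plants, experiment or hybridisation day an array belongs to is unknown here, so none was modelled. The members, the substrate classes and the 8 pathway lists (133 genes, 16 with a named probe set) were chosen with earlier results of these data known. Genes described in full were those called the same way at all 3 stages, UGT84B1, UGT84A3 and UGT71C4, those with the largest called differences per comparison, all called interactions, and the 3 highest and 3 lowest mean levels. Other members are described by class. Alternatives were another prior variance, a second quantile normalization, median centring, a filter on the dimmest 30% of probe sets, the compared groups alone, a replicate block, controls included, and leaving out each array.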

Additional observations from a re-analysis of the deposited data

Results flagged for a closer look

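The change with seed age differed between the accessions, by the test of the difference itself, for 11 UGT genes in 18 comparisons. Each value below is on the log2 scale and gives the change in C24 less the change in Col-0.

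In the step between 8-9 and 10-11 days it was 1.46 for UGT85A7, 0.75 for UGT84A3, 0.63 for UGT72E3 and 0.54 for UGT74F1, which had the more positive change in C24. It was -1.12 for UGT87A2 and -0.99 for UGT88A1. In the step between 10-11 and 12-13 days it was 1.08 for UGT88A1, -0.79 for UGT87A2, -0.78 for UGT71B5, -0.65 for UGT76E12, -0.60 for UGT85A2 and -0.55 for UGT74B1. Over the whole span it was 1.65 for UGT85A7, 1.11 for UGT84A3 and 0.46 for UGT74F1, and -1.91 for UGT87A2, -0.86 for UGT71C3 and -0.55 for UGT74B1.

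UGT88A1 is the gene with opposite signs in the 2 steps, which share the arrays at 10-11 days. Its 3 C24 arrays at that stage lay at 5.34, 5.99 and 5.38, against 7.28, 7.41 and 6.96 in Col-0. UGT85A2, UGT76E12, UGT71C3, UGT87A2 and UGT88A1 (4.54 in C24 at 12-13 days) had group means near or below the 25th percentile in at least 1 group. A change that involves such a group can be understated, so the value given here can be too small or too large. It can be overstated for UGT88A1 in the second step (1.08) and for UGT87A2, where the low level is in C24.

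With 1 array left out, 9 of the 18 values kept the call in every fit. The other 9 lost it at least once. The ranges below are over all 12 fits, except that of UGT88A1, which covers only the fits that lost the call. The call was lost in 5 of 12 fits for UGT71B5 (-0.93 to -0.65), in 8 for UGT76E12 (-0.78 to -0.46), in 8 for UGT85A2 (-0.70 to -0.46), and in 8 for the second step of UGT87A2 (-0.97 to -0.60). For UGT74B1 it was lost in 9 (second step, -0.66 to -0.48) and 7 (whole span, -0.67 to -0.47). For UGT74F1 it was lost in 5 (first step, 0.47 to 0.64) and 10 (whole span, 0.33 to 0.54). For the first step of UGT88A1 it was lost without replicate 1 of C24 at 8-9 days or 10-11 days and without replicate 1 or 2 of Col-0 at 10-11 days (-0.95 to -0.87).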

How the results depend on the processing

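Over 12 counts and 7 alternatives besides leaving out arrays, 83 of 84 counts stayed within 1.5 times the reported one. The exception was the second-step interaction, with 3 genes instead of 6 when the model held the compared groups alone. It was also the count that moved with single arrays left out, between 1 and 7 genes. It was 3 or fewer without replicate 1 or 2 of C24 at 10-11 or 12-13 days, replicate 1 or 2 of Col-0 at 10-11 days, or replicate 1 or 3 of Col-0 at 12-13 days. The cause was not tested. For C24 minus Col-0 the counts ran at 8 to 11, 9 to 11 and 11 to 13 genes at the 3 stages with 1 array left out. Of 661 values of named genes under these 7 alternatives 653 kept direction and side of the threshold, and 8 interaction values lost the call, with adjusted p between 0.0539 and 0.0902. With 1 array left out, 601 of 678 did. UGT84A3 at 12-13 days, 0.07 and not called, was -0.0159 without replicate 2 of Col-0 and 0.15 without replicate 3, so its sign is not settled. At 10-11 days its difference of -0.29 passed without replicate 1 of C24 (-0.38, adjusted p = 0.0495) or replicate 3 of Col-0 (-0.39, adjusted p = 0.045).

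Samples with the same replicate number did not deviate together: of 27 pairs, 3 correlated over 0.1, and the range was -0.21 to 0.21. The replicate block moved no count by over 1.5 times, and it ended 1 call, the second-step interaction of UGT87A2 (-0.79, adjusted p = 0.0545). Array signal limits the 12 genes below 4.41 in all groups, for which no change is shown to lie above background.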
